A study of Mus musculus with 12 samples.

Results

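Mir451a and Mir144 are neighbouring miRNA genes that are transcribed together from mouse chromosome 11 and that are best known from red blood cells. They were taken by name from the 2202 miRNA genes of the GENCODE annotation, so 2 genes of 2202 are described here, in mouse embryonic stem cells whose small RNAs were sequenced. Reads were counted for a gene when they had at least 18 nt and matched its hairpin exactly, on the sense strand and over the whole read.

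Most miRNAs are cut out of a long primary transcript by Drosha and then out of the hairpin loop by Dicer, and the short duplex is loaded into an Argonaute protein. The hairpin of Mir451a is known as an exception: its stem is too short for Dicer, so it is loaded whole into Ago2, the Argonaute that can cut RNA, and Ago2 cuts the far side of the stem. The 3' end of the cut RNA is then shortened by exonucleases. Mir144 lies on the same primary transcript and takes the usual route through Dicer.

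Of the 12 libraries, 8 came from a pull-down experiment. The clonal line TT-FHAgo2 made Ago2 with the FLAG and HA tags ("tagged" below) and the clonal line TT-Ago2 made it without a tag ("untagged"), so each line stands for 1 clone. Both were kept in 0.1 µg/mL doxycycline, which switches the Ago2 gene on, and were raised to 2.5 µg/mL for these libraries, a dose meant to give wildtype Ago2 levels. Each line gave 2 libraries from a FLAG immunoprecipitation (IP) and 2 from the RNA it started from (input), cloned by circularization, which does not need a 5' phosphate on the RNA. The titles carry 1 of 2 codes, called A (reads of up to 50 nt) and B (reads of up to 51 nt). The other 4 were single libraries, cloned by ligation that needs a 5' phosphate, with reads of up to 40 nt: TT-FHAgo2 cells with 2.5 µg/mL doxycycline, TT-FHAgo2 cells with no doxycycline, wildtype cells and Dicer null cells. The series text describes a part of the cells as lacking Ago proteins, taken here as the TT-FHAgo2 cells without doxycycline. All cells grew in medium with fetal bovine serum and leukemia inhibitory factor, and all RNA was cut from a gel at 18 to 75 nt.

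The files held between 14474875 and 78762632 reads, and levels are given as CPM, reads in 1000000 reads of the library. A library without a read of a gene still allows 3 reads, its floor, which ranged from 0.0381 to 0.207 CPM. The floor and all intervals cover counting error only, since copies made by PCR were counted as reads. The labels do not name separate cultures, so p-values measure a spread between libraries that may be technical. In bulk RNA, fewer cells that make a miRNA cannot be told apart from less miRNA in each cell. The 14 measured miRNAs of the stem cell list (the miR-290 to miR-295 and miR-302/367 clusters) summed to 399343 and 292143 CPM in the tagged IPs (replicates A and B) and to 78478 CPM in wildtype cells. Of the 7 blood markers with reads, Mir142 (4692 and 4471 CPM), Mir150 (2053 and 1642 CPM) and Mir155 (87.7 and 55.3 CPM) were well measured in the tagged IPs. For the red cell miRNA Mir486 and its copy Mir3107, reads that fit only 1 hairpin stayed at or below 0.186 and 0.233 CPM in every library. Any read that fits both hairpins was counted apart, in a merged feature, so these values do not give the full level of Mir486. Mir223 of myeloid cells had 1 read in all, in the untagged IP of replicate A. Reads that several hairpins share are left out of all these marker levels and sums.

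The mature sequences and hairpins are shown first because the results turn on where reads begin and end in them. Sequences and positions are from RefSeq (GRCm38.p6), and capitals in the mature sequences mark the seed, bases 2 to 8, with which a miRNA recognises its targets.
mmu-miR-451a: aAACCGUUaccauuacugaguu
mmu-miR-144-5p: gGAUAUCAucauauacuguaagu
mmu-miR-144-3p: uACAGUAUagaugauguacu
No other mature miRNA in the RefSeq table shared the seed of any of the 3. Bases 2 to 7 of miR-144-3p were also those of miR-101a-3p.

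The Mir144 hairpin is annotated at chr11:78073005-78073070 (66 nt) and that of Mir451a at chr11:78073170-78073241 (72 nt), both on the plus strand and 99 nt apart. Both are non-coding miRNA genes. In the hairpins, capitals mark the annotated mature miRNAs, 2 arms for Mir144 and 1 for Mir451a.
Mir144: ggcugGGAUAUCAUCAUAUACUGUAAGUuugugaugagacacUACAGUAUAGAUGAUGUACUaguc
Mir451a: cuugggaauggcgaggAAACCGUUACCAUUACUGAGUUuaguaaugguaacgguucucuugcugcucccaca
The mature miR-451a covers bases 17 to 38 of its hairpin. In the structure of lowest free energy that RNAfold computed, 17 of its 22 bases were paired and its last 4 bases formed the whole loop, bases 35 to 38. Reads of Mir451a were not shared with another gene: none of the 27 distinct sequences counted for it, and none of the 9 counted for Mir144, occurred in any other of the 55450 annotated genes.

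Among the libraries of the pull-down experiment, Mir451a was most abundant in the tagged IPs. Its reads numbered 78 and 64 in the 2 tagged IPs, 14 and 7 in the untagged IPs, 0 and 1 in the tagged inputs and 8 and 4 in the untagged inputs (replicates A and B). As levels the tagged IPs stood at 4.75 and 2.13 CPM, the untagged IPs at 0.790 and 0.384 CPM, the tagged inputs at 0 and 0.0538 CPM and the untagged inputs at 0.480 and 0.276 CPM. Both tagged IPs therefore lay above all other libraries of the experiment, and the untagged IPs overlapped the untagged inputs. The group means were 3.44 ± 1.85, 0.587 ± 0.287, 0.0269 ± 0.0381 and 0.378 ± 0.144 CPM (SD, n = 2 each), in the same order. In the order of the means, the untagged IP and the untagged input did not differ beyond their spread.

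**Figure D1:**
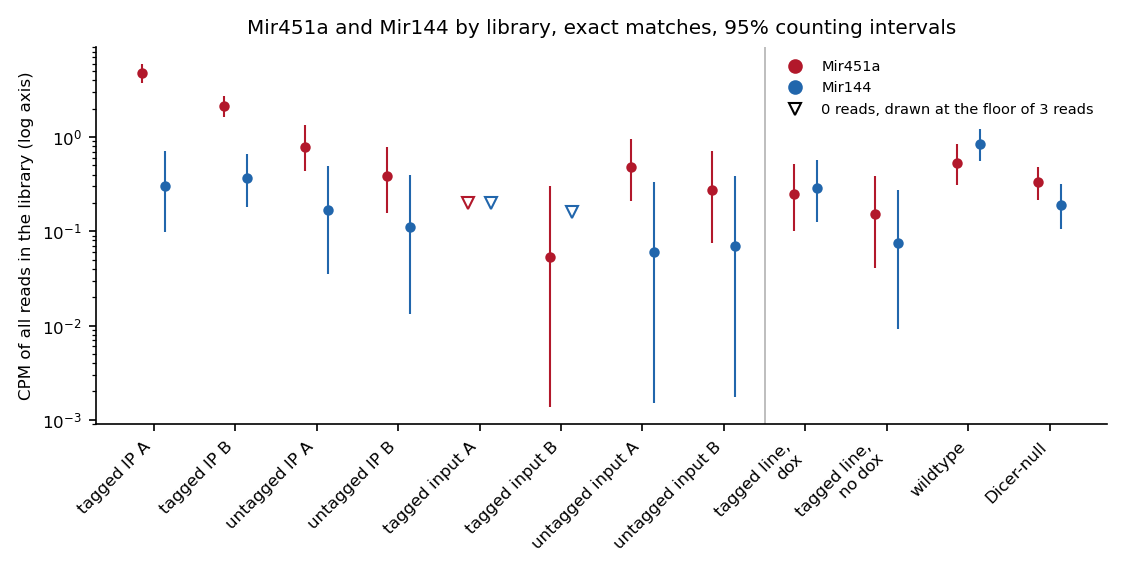
Level of Mir451a and Mir144 (CPM, log axis) in each of the 12 libraries, as points with exact 95% Poisson intervals, the circularized libraries left of the line and the ligated ones right of it. Mir451a stood at 4.75 and 2.13 CPM in the tagged IPs, above all other libraries, while Mir144 was highest in wildtype cells, at 0.837 CPM. Triangles mark libraries with 0 reads, drawn at the floor.

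Mir144 was scarce throughout. It had 5 and 11 reads in the tagged IPs, 3 and 2 in the untagged IPs, none in the tagged inputs and 1 in each untagged input. Its levels were 0.304 and 0.365 CPM with the tag and 0.169 and 0.110 CPM without it. The untagged values were at or under the floor of 3 reads. The group means were 0.335 ± 0.0433 and 0.140 ± 0.0422 CPM (SD, n = 2 each). By abundance, Mir451a ranked 326 of 1265 single hairpins in the mean of the tagged IPs and Mir144 ranked 543.

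The first comparison asked whether the FLAG antibody brought down the 2 miRNAs through the tag. Mir451a was higher in the tagged IP than in the untagged IP, by 2.53 ± 0.75 on the log2 scale (SE; edgeR quasi-likelihood test, adjusted p = 0.00647, 2 libraries against 2). Summed reads gave a ratio of 5.22 (exact 95% interval 3.29 to 8.70), 6.0 within replicate A and 5.54 within replicate B. This was the usual size for a hairpin: 546 of 698 hairpins tested were called higher (78.2%), 57 were called lower, and the median over the hairpins was 2.42 on the log2 scale. Scaled to the hairpins themselves, the fold change was near 0, at 0.12 with TMM factors (adjusted p = 0.981) and 0.06 with DESeq2 (adjusted p = 0.991), and the split of calls turned to 1 higher and 98 lower with TMM factors. Mir451a also lost its call without the tagged IP of replicate A, at 1.85 (adjusted p = 0.123), and when reads were limited to 18 to 26 nt, at 1.60 (adjusted p = 0.0754).

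Mir144 had too few reads to pass the filter on low counts. In a fit without that filter its log2 fold change between tagged and untagged IP was 1.24 ± 1.05 (SE; edgeR, adjusted p = 0.483), and the test was not passed. The ratio of its summed reads was 2.47 (exact 95% interval 0.865 to 8.63), 1.80 within replicate A and 3.33 within replicate B. Scaled to hairpins, its fold change turned negative, at -0.93 with TMM factors (adjusted p = 0.920).

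The balance of the pair was compared in the same IPs. There were 15.6 and 5.82 reads of Mir451a for each read of Mir144 in the tagged IPs, and 4.67 and 3.50 in the untagged IPs. The ranges did not overlap, and the mean ratio was 2.62 times as high with the tag. An exact two-sided permutation test gave p = 0.333, the smallest that 2 libraries against 2 allow. With each distinct sequence counted once, the ratios were 5.67 and 3 against 3 and 4, the ranges overlapped and the mean ratio was 1.24 times as high (exact permutation test, p = 1). Without the tagged IP of replicate A it was 1.42 times as high. In the 4 ligated libraries the balance ran from 0.630 reads of Mir451a for each read of Mir144 in wildtype cells, and 0.875 with doxycycline, to 1.73 in Dicer null cells and 2 without doxycycline.

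**Figure D2:**
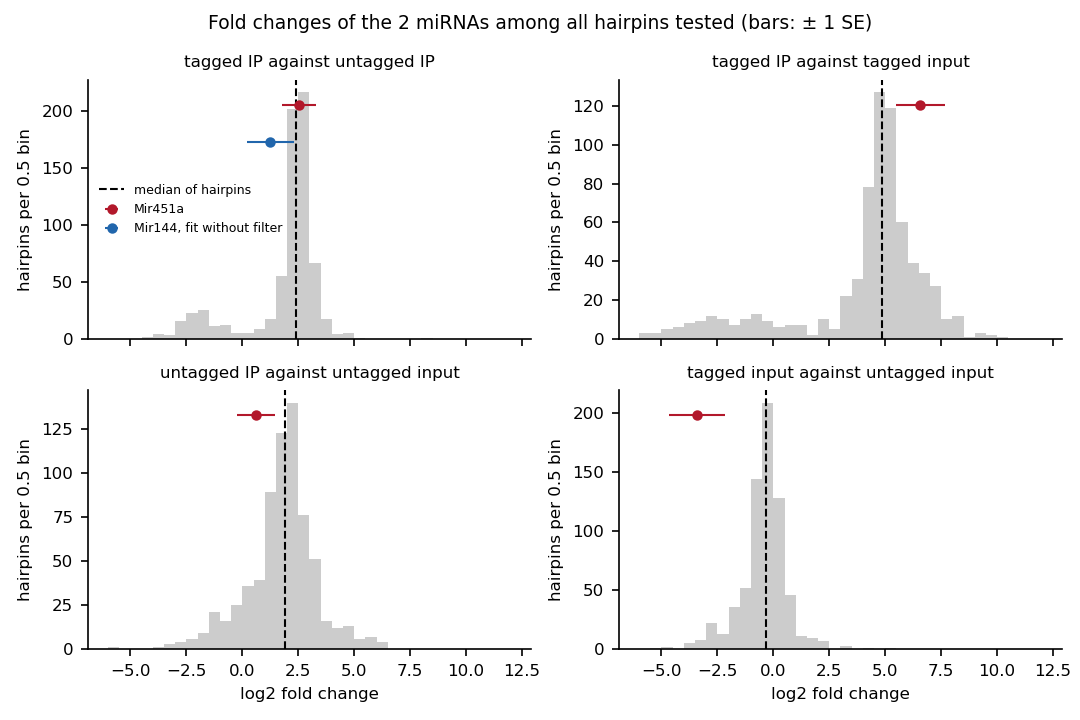
Number of hairpins (of 698 tested) in bins of log2 fold change for the 4 comparisons between groups, with the median of all hairpins (dashed) and the fitted value ± 1 SE of Mir451a. Mir144 is drawn in the first panel only, from the fit without the filter. Mir451a sat near the median between IPs (2.53 against 2.42), to the right of it against the tagged input (6.56 against 4.86) and to the left of it between inputs (-3.42 against -0.33).

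Against its own input, Mir451a rose in the tagged IP, with 6.56 ± 1.09 as the fitted log2 value (SE; edgeR, adjusted p = 2.29e-05). The fitted size rests on 142 reads in the IPs against 1 read in the inputs and depends on the prior count. The ratio of summed reads was 102 with an exact 95% interval from 18.1 to 4070. Again most hairpins rose, 582 of 698 (83.4%), with a median log2 fold change of 4.86, and 87.1% of hairpins lay below Mir451a. Scaled to hairpins, most calls went lower, with 37 higher and 120 lower with TMM factors and 43 and 125 with DESeq2. The value of Mir451a was then 2.22 with TMM factors (adjusted p = 0.315) and 2.10 with DESeq2 (adjusted p = 0.395), and neither was called. Mir144 had 16 reads in the tagged IPs and none in the tagged inputs. Set against a floor of 3 reads over the group, it was 3.84-fold higher. The exact 95% lower limit of the ratio was 2.78. In the fit without the filter, 743 of 2292 hairpins were called higher against the tagged input, with a median of 2.17. Mir144 also rose there (edgeR, adjusted p = 0.00672), and 89.6% of hairpins lay below it. That call was lost when the tagged IP of replicate B (adjusted p = 0.0683), the tagged input of replicate A (adjusted p = 0.0529) or that of replicate B (adjusted p = 0.0817) was left out, and when scaled to hairpins (adjusted p = 0.769 with TMM factors, 0.952 with DESeq2).

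In the line without a tag, the pull-down shows the background of the antibody and beads. Mir451a did not pass the test between untagged IP and untagged input, at 0.61 ± 0.83 on the log2 scale (SE; edgeR, adjusted p = 0.526) and a ratio of summed reads of 1.52 (exact 95% interval 0.712 to 3.38). Of the hairpins tested, 342 of 698 (49%) were called higher and the median log2 fold change was 1.91, so that 18.2% of hairpins lay below Mir451a. Scaled to hairpins with TMM factors, 3 were called higher and 53 lower. The sign of Mir451a turned there, at -1.10 (adjusted p = 0.526). Mir144 was at or under the floor in both groups, and no fold is given.

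The gain of the IP over its input differed between the lines for Mir451a, by 5.95 ± 1.44 on the log2 scale (SE; edgeR interaction term, adjusted p = 0.0170). Within replicate A, Mir451a had no read in the tagged input, and the tagged IP was 23.7-fold above the floor of 3 reads there. The exact 95% lower limit of the ratio of tagged IP to input was 18.8. The untagged IP was 1.65-fold higher than its input (exact 95% interval 0.645 to 4.53). Within replicate B the ratios were 39.5 (6.84 to 1585) and 1.39 (0.353 to 6.47). The interaction was called higher for 385 of 698 hairpins (55.2%), with a median of 2.84, and 97.3% of hairpins lay below Mir451a. Scaled to hairpins, no hairpin was called higher, and 77 were called lower with TMM factors and 96 with DESeq2. The call was lost without the tagged IP of replicate A (adjusted p = 0.0521) or B (0.0632), without the tagged input of replicate B (0.0502), with reads of 18 to 26 nt (0.0846), with TMM factors (0.408) and with DESeq2 (0.461).

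The larger part of that difference lay in the inputs, since the log2 fold change between the IPs was 2.53. Together the tagged inputs held 1 read of Mir451a in 33535748 and the untagged inputs 12 in 31139081, a ratio of 0.0774 (exact 95% interval 0.00181 to 0.523). The log2 fold change between tagged and untagged input was -3.42 ± 1.26 (SE), against a median of -0.33 over all hairpins, and 1.15% of hairpins lay below it. It did not pass the test (edgeR, unadjusted p = 0.0137, adjusted p = 1). No hairpin was called higher (0 of 698, 0%) or lower between the inputs, 23 had an unadjusted p under 0.05, and DESeq2 called none either.

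The reads of Mir451a were long. Of the exact reads, 71 of 78 in the tagged IP of replicate A (91.0%, exact Clopper-Pearson 95% interval 82.4 to 96.3) and 52 of 64 in that of replicate B (81.2%, 69.5 to 89.9) were longer than 22 nt, the length of the annotated miR-451a. In the untagged IPs it was 12 of 14 and 6 of 7 reads, 85.7% in both. The shares in tagged and untagged IP, 86.1% ± 6.91 and 85.7% (n = 2 each), did not differ beyond their spread (exact two-sided permutation test, p = 1). In the untagged inputs 8 of 8 and 3 of 4 reads were beyond 22 nt. Mir144 showed the opposite: 1 of 5 and 1 of 11 reads in the tagged IPs, and none of 3 and 2 in the untagged IPs, were longer than 22 nt (exact two-sided permutation test, p = 0.333). In wildtype cells 5 of 27 were. None of its reads in any library was longer than 23 nt.

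Few other hairpins gave such lengths. Among the 333 hairpins with at least 50 exact reads in the tagged IP of replicate A, the median share beyond 22 nt was 20.4%, and among 378 in replicate B it was 19.8%. At that limit 12 and 32 of them had a higher share than Mir451a. Beyond 25 nt the medians were 0.0442% and 0.0329%, against 82.1% and 71.9% for Mir451a. Only Snord43, a snoRNA gene counted among the miRNA genes, had a higher share beyond 25 nt in replicate A (86.5% of 310 reads). In replicate B it was Snord43, mmu-mir-3535, Mir6546 and Mir677, which ranged from 77.1 to 91.9%.

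The main forms of the RNA are given below because they show 1 fixed start and a few preferred ends. Each is a deposited read that begins at the first base of miR-451a, and capitals mark the bases beyond the annotated 3' end.
Read of 21 nt: aaaccgttaccattactgagt
Read of 23 nt: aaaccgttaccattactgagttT
Read of 26 nt: aaaccgttaccattactgagttTAGT
Read of 29 nt: aaaccgttaccattactgagttTAGTAAT
Read of 30 nt: aaaccgttaccattactgagttTAGTAATG
Over the 12 libraries there were 20 exact reads of the first form, 26 of the second, 59 of the third, 72 of the fourth and 11 of the fifth. The annotated 22 nt form had 3 reads, all in the tagged IP of replicate A.

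Many further reads differed from the hairpin at their ends only. With 1 unmatched base allowed at the 5' end and up to 2 at the 3' end, a matching rule chosen after the reads had been seen, the tagged IPs held 146 and 294 reads of Mir451a in place of 78 and 64. The level became 8.88 CPM in replicate A and 9.77 CPM in replicate B, and the mean 9.33 ± 0.625 CPM (SD, n = 2), so that the spread between the replicates shrank. The untagged IPs came to 1.13 and 1.59 CPM, the tagged inputs to 0 and 0.108 CPM and the untagged inputs to 0.660 and 0.484 CPM. The log2 fold change between tagged and untagged IP was then 2.77 ± 0.77 (SE; edgeR, adjusted p = 0.00219), and the interaction 5.92 (edgeR, adjusted p = 0.0134). Mir144 passed the filter on low counts under this rule. Its log2 fold change was 1.41 ± 0.86 between the IPs (SE; edgeR, adjusted p = 0.119). Against the tagged input it was 4.21 ± 1.22 (SE; edgeR, adjusted p = 0.00127). Under this rule 644 of 829 hairpins were called higher between the IPs (median 2.42) and 686 against the tagged input (median 4.87). For the interaction it was 426 (median 2.77). Mir144 lay under the median between the IPs and against the tagged input, with 19.4% and 31.6% of hairpins below it.

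**Figure D3:**
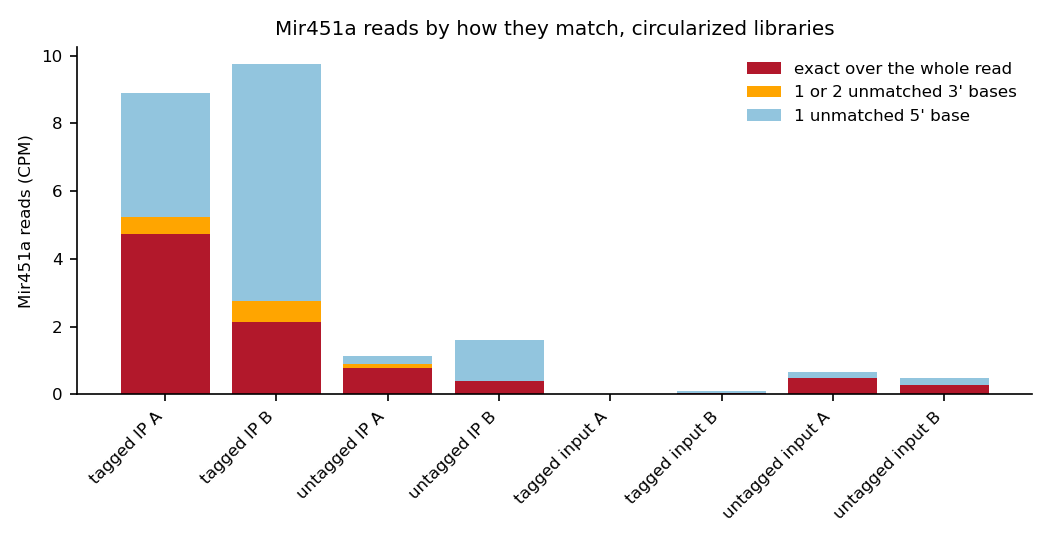
Level of Mir451a (CPM) in the 8 circularized libraries, stacked by how the reads match the hairpin. Exact reads reached 4.75 CPM in the tagged IP of replicate A and 2.13 CPM in that of replicate B, while all reads together reached 8.88 and 9.77 CPM.

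The unmatched base at the 5' end was mostly A. The 5 most frequent forms with unmatched ends are given because they made up 235 of the 338 reads that exact matching set aside, with capitals for the bases that are not in the hairpin.
5' A and 26 nt: Aaaaccgttaccattactgagtttagt
5' A and 29 nt: Aaaaccgttaccattactgagtttagtaat
5' A and 30 nt: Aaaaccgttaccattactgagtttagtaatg
5' A, 30 nt and 3' T: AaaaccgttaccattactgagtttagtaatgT
30 nt and 3' T: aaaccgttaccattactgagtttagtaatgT
They had 61, 78, 33, 36 and 27 reads over all libraries. In the circularized libraries 304 of 509 reads of Mir451a had an unmatched 5' base, which was A in 253, T in 40 and C in 11. A G would match base 16 of the hairpin and could not be counted as unmatched. None of the 59 reads in the ligated libraries had one. There, hairpins with at least 50 reads had median shares of only 0.489% to 0.740%. The share for Mir451a was 41.1% (exact 95% interval 33.03 to 49.5) in the tagged IP of replicate A and 71.8% (66.3 to 76.8) in replicate B. Hairpins with at least 50 reads had a median share of 7.69% in the first (367 hairpins) and 14.1% in the second (437 hairpins), and 16 and 8 of them, Mir451a included, were at or above its share. The source of the extra base was not tested.

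With unmatched ends included, 536 of 568 reads of Mir451a over the 12 libraries (94.4%) began at base 17 of the hairpin, the annotated start of miR-451a. The 3' ends gathered at base 42 (155 reads), base 45 (172 reads) and base 46 (126 reads), which give 26, 29 and 30 nt from that start. No read reached beyond base 46, in libraries whose reads could run to 40, 50 or 51 nt. In the computed structure base 46 pairs with base 27, the 11th of miR-451a, and base 47 with base 26, the 10th. It is known that an Argonaute cuts a paired RNA between the bases that face positions 10 and 11 of its guide. The last 3' end seen lies at that bond in the computed structure. Among the ligated libraries, wildtype cells had 1 read with that end and the others none. What made this end was not tested. Of the 126 reads that ended at base 46, 68 (54.0%) carried 1 or 2 unmatched T after it.

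**Figure D4:**
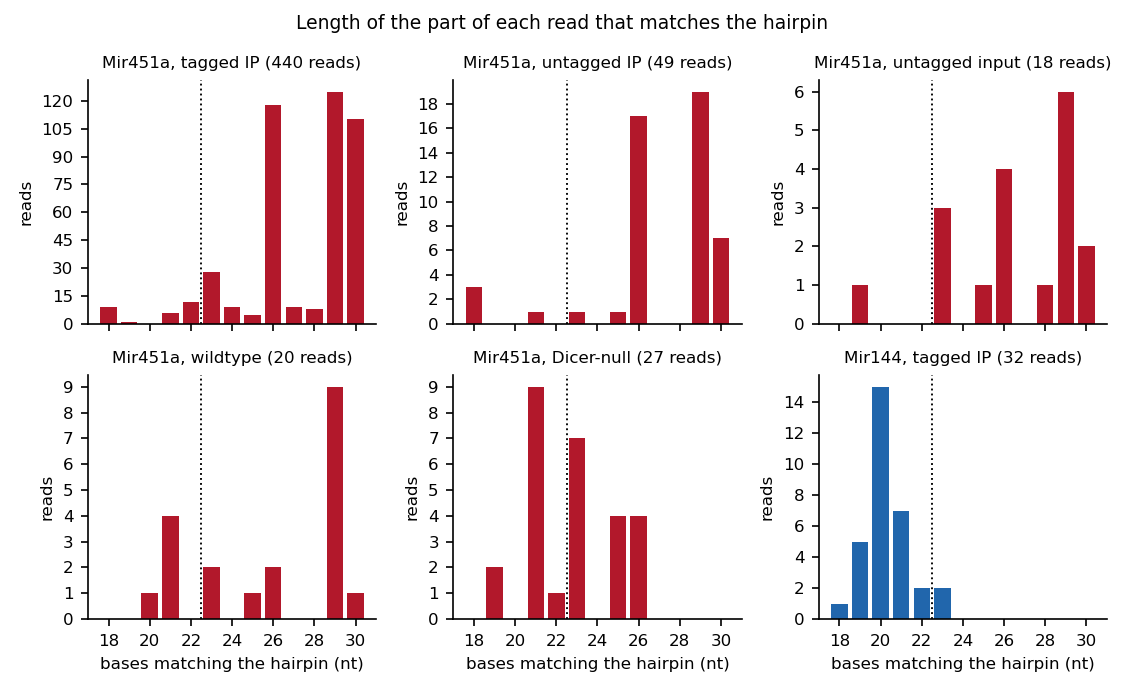
Number of reads (vertical axis) by the number of bases that match the hairpin (nt, horizontal axis), unmatched end bases allowed but not counted, for Mir451a in 5 groups and for Mir144 in the tagged IP. The dotted line marks 22 nt. Mir451a peaked at 26, 29 and 30 nt in the tagged IP and had no read beyond 26 nt in Dicer null cells, while Mir144 peaked at 20 nt.

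These 3 lengths made up 80.2% of 440 reads in the tagged IPs, 87.8% of 49 reads in the untagged IPs and 66.7% of 18 reads in the untagged inputs. In wildtype cells they made up 60% of 20 reads, with 9 reads of 29 nt. In Dicer null cells it was 14.8% of 27 reads, in cells with doxycycline 25% of 8 reads, and without doxycycline 0% of 4 reads. The forms of 21 and 23 nt led in those libraries, with 9 and 7 exact reads in Dicer null cells.

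Reads of Mir144 came mostly from the 3' arm. Over the 12 libraries 61 of its 75 exact reads were of miR-144-3p and 14 of miR-144-5p. The annotated 20 nt form of miR-144-3p alone had 52 exact reads. The 5' arm had 7 reads in wildtype cells, 2 each in Dicer null cells, in cells with doxycycline and in the tagged IP of replicate B, and 1 in the tagged IP of replicate A.

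The ligated libraries were compared as single libraries, with no replicate check and no test. Mir451a had 17 reads in wildtype cells (0.527 CPM, exact 95% interval 0.307 to 0.844) and 26 in Dicer null cells (0.330 CPM, 0.216 to 0.484). With doxycycline there were 7 reads (0.252 CPM, 0.101 to 0.518) and without it 4 reads (0.151 CPM, 0.0411 to 0.386). In this order from wildtype to no doxycycline, the intervals of neighbours overlapped. Mir144 had 27 reads in wildtype cells (0.837 CPM, 0.552 to 1.22), 8 with doxycycline (0.287 CPM, 0.124 to 0.566), 15 in Dicer null cells (0.190 CPM, 0.107 to 0.314) and 2 without doxycycline (0.0754 CPM, 0.00913 to 0.272). Wildtype cells thus held more Mir144 than Mir451a reads, and Dicer null cells more Mir451a than Mir144 reads.

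The 2 miRNAs were set against each other in cells with and without Dicer. The ratio of wildtype to Dicer null cells was 1.60 for Mir451a (exact 95% interval 0.813 to 3.06), which includes 1, and 4.40 for Mir144 (2.26 to 8.89). The intervals of the 2 miRNAs overlap. Among the 784 hairpins with at least 10 reads in the pair, the median ratio was 42.5, and 509 (64.9%) had a ratio above 2. Of these hairpins 33.3% lay below Mir451a and 38.9% below Mir144. All hairpin reads together took 14.9 times as large a share of the wildtype library, and as a part of hairpin reads both miRNAs were lower in wildtype than in Dicer null cells, at ratios of 0.107 for Mir451a and 0.296 for Mir144. Among single hairpins with a read, Mir451a ranked 387 of 813 in wildtype and 183 of 641 in Dicer null cells. The ranks of Mir144 were 356 and 238.

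The length of Mir451a was compared in the same 2 libraries. With unmatched ends included, reads beyond 22 nt made up 75% in wildtype cells (exact 95% interval 50.9 to 91.3) and 55.6% in Dicer null cells (35.3 to 74.5), and these intervals overlap. At a higher limit, 10 of 20 reads in wildtype cells were longer than 26 nt (50%, exact 95% interval 27.2 to 72.8), and 0 of 27 in Dicer null cells (0 to 12.8%). The intervals at 26 nt, a limit chosen after the lengths had been seen, did not overlap. A single library of each kind gives no measure of the spread between cultures.

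Doxycycline in the tagged line gave ratios of 1.67 for Mir451a (exact 95% interval 0.424 to 7.78) and 3.81 for Mir144 (0.761 to 36.9) over no doxycycline, and both intervals include 1. Of 608 hairpins, 395 (65%) had a ratio above 2, with a median of 13.4. Wildtype cells held 3.50 times the Mir451a level (1.14 to 14.3) and 11.1 times the Mir144 level (2.79 to 96.4) of the cells without doxycycline. In that pair 511 of 709 hairpins (72.1%) had a ratio above 2, with a median of 40.5. Against the cells with doxycycline the wildtype ratio was 2.10 for Mir451a (0.826 to 5.98) and 2.91 for Mir144 (1.29 to 7.42), where 367 of 733 hairpins (50.1%) were above 2 and the median was 2.01. As a part of hairpin reads these ratios were 1.02 (0.402 to 2.91) and 1.42 (0.627 to 3.61), and both intervals include 1. On that scale the direction of the other comparisons turned. Wildtype over no doxycycline was 0.215 for Mir451a (0.0703 to 0.880, without 1) and 0.684 for Mir144 (0.172 to 5.94). Doxycycline over none was 0.211 for Mir451a (0.0537 to 0.983, without 1) and 0.482 for Mir144 (0.0963 to 4.66). The comparisons with wildtype cells share the wildtype library.

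Other miRNAs of blood were measured beside the pair, without the reads that several hairpins share. The 7 blood markers with reads summed to 6834 and 6170 CPM in the tagged IPs (A and B), 1004 and 1594 CPM in the untagged IPs, 414 and 178 CPM in the tagged inputs and 401 and 315 CPM in the untagged inputs, and to 120 CPM in wildtype and 0.432 CPM in Dicer null cells. Of 9 genes of the blood and red cell list with reads, 6 passed the filter on low counts, and 5 of these were called higher in the tagged than in the untagged IP, with a median log2 fold change of 2.50. Over all hairpins the share called higher was 78.2% and the median 2.42, so the list was near the background. Its 3 most abundant members in the tagged IPs were Mir142, the general blood cell miRNA, Mir150 of lymphocytes, and Mir363 of the miR-106a cluster. Mir363 stood at 543 and 601 CPM there and is not one of the 7 blood markers. All 3 were far more abundant in the tagged IPs than Mir451a. In wildtype cells, cloned by ligation, Mir142 stood at 22.3 CPM and in Dicer null cells at 0.127 CPM, below the 0.330 CPM of Mir451a. Of the miRNAs that reach Argonaute without Drosha, 7 of 10 with reads passed the filter. All 7 were called higher in the tagged than in the untagged IP, with a median log2 fold change of 2.56, beside the same 78.2% and 2.42 over all hairpins. Scaled to hairpins with TMM factors, 1 of 698 hairpins was called higher in that comparison. The highest were Mir484 (1566 and 1321 CPM), Mir320 (473 and 191 CPM), both made from a transcription start, and the mirtron Mir877 (102 and 84.6 CPM). The liver and serum list had 2 genes with reads, which went in opposite directions between wildtype and Dicer null cells. Mir122 stood at 1.09 CPM in wildtype cells and at 3.72 CPM in Dicer null cells, and at 0.669 and 0.864 CPM in the tagged IPs. Mir192 stood at 122 CPM in wildtype cells and at 0.774 CPM in Dicer null cells. How far blood-derived or serum-derived RNA takes part in the levels of Mir451a and Mir144 was not tested.

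By Spearman's rho of CPM over the 12 libraries, the hairpins most like Mir451a were Mir3076 (rho 0.91), Mir5626, Mir3063, Mir302a and Mir326 (0.86). Those most like Mir144 were Mir146 (0.94), Mir1947, Mir183, Mir7-1 and Mir182 (0.88). The points share depth and cloning method, and the values are descriptions from sparse counts.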

How the data were processed

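The deposited files list, for each of 12 libraries, distinct read sequences and the raw counts of reads, which the authors did not normalise. Per the labels' protocols, RNA of 18 to 75 nt was cloned by circularization (8 libraries) or ligation (4 libraries). The sources used here do not say how reads were trimmed. Reads of at least 18 nt were matched exactly to GENCODE vM21 transcripts (GRCm38). Sequences that several hairpins share formed merged features. CPM divides by all reads of the file.

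Groups came from the labels. The 8 replicated libraries were fitted in edgeR 4.0.16 (R 4.3.3) with library totals, filterByExpr, quasi-likelihood tests and Benjamini-Hochberg adjustment at 0.05 over all hairpins tested. The fit was tested on simulated data. Exact permutation tests and exact intervals (Poisson, Clopper-Pearson, 95%) used scipy 1.17.1, structures RNAfold 2.7.2, tables Python 3.11.15, numpy 2.4.6 and pandas 2.3.3, plots matplotlib 3.10.9. Single-library ratios have no test.

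Alternatives were TMM factors, DESeq2 1.42.0, all hairpin reads as library size, no filter, a replicate block, leaving out each library, other read lengths, unmatched 3' bases, reads of several hairpins dropped and distinct sequences counted once. Matching with an unmatched 5' base, and the Mir144 fits without the filter, were added after seeing the data.

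The 2 genes and all lists were chosen with earlier results of these data known. Named genes are both members, the 5 hairpins most like each, the neighbours of each in abundance, and the 3 most abundant members of each list. Other hairpins are named where a count of at most 5 is given or markers are checked, and were chosen after their values were seen.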

Additional observations from a re-analysis of the deposited data

Results flagged for a closer look

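The gain of Mir451a from input to IP differed between the tagged and the untagged line by 5.95 on the log2 scale (edgeR interaction term, adjusted p = 0.0170). The direction was the same in both replicates. The tagged inputs held 1 read against 12 in the untagged inputs, and the larger part of the difference lay there. The interaction term did not pass with TMM factors (edgeR, adjusted p = 0.408) or with DESeq2 (adjusted p = 0.461).

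Reads of Mir451a with 1 unmatched 5' base, which exact matching sets aside, came to 5.33 ± 2.38 CPM in the tagged IP (3.65 and 7.01 CPM) and to 0.716 ± 0.694 CPM in the untagged IP (0.226 and 1.21 CPM; SD, n = 2 each), so that the groups did not overlap.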

How the results depend on the processing

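Counts of hairpins called fell where the fit was scaled to hairpins. With TMM factors, DESeq2 and all hairpin reads as library size they were 99, 103 and 122 between the IPs (603 in the report), 157, 168 and 189 for the tagged IP against its input (639), 56, 85 and 51 for the untagged IP against its input (359), and 77, 96 and 85 for the gain (416). Reads of 18 to 26 nt gave 272 between the IPs and 0 for the gain. Distinct sequences counted once gave 33 for the untagged IP against its input and 1 between the inputs. Leaving out single libraries gave 418 to 652, 624 to 718, 13 to 391, 0 to 0 and 0 to 421 calls for the 5 comparisons. The third fell to 84 without the untagged IP of replicate B and to 13 without the untagged input of replicate B. The gain fell to 0 without either tagged IP or without the tagged input of replicate B, to 89 without the untagged IP of replicate A and to 155 without the untagged input of replicate A.

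For Mir451a, the untagged IP against its input turned to -1.09 with DESeq2, -1.10 with TMM factors and -0.19 with distinct sequences. It did not pass the filter with all hairpin reads as library size. For Mir144, tagged against untagged IP turned to -1.13 with DESeq2, -0.93 with TMM factors and -0.99 with all hairpin reads. It passed the test with distinct sequences, at 2.19 (edgeR, adjusted p = 0.0333), where 741 of 2292 hairpins were called higher. The difference of the share of Mir451a beyond 22 nt (tagged minus untagged IP, 0.424 percentage points) turned to -3.99 with reads of 20 nt or more and -8.87 with distinct sequences, and ran from -4.46 to 5.31 leaving out single libraries. That of Mir144 ran from 9.09 to 20, and the ratio of the pair from 1.42 to 3.82. With reads of 20 nt or more the last 2 had no value, since an untagged IP held no Mir144 read.

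As a part of hairpin reads, the ratio of doxycycline to none was 0.211 (Mir451a) and 0.482 (Mir144), of wildtype to Dicer null cells 0.107 and 0.296, and of wildtype to no doxycycline 0.215 and 0.684. The cause of these shifts was not tested.

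With the replicate code as a block, Mir451a was at 2.51 between the IPs (edgeR, adjusted p = 0.000650), and no call of it changed. Over 6 pairs of groups, deviations correlated at 0.067 to 0.481, 5 of them above 0.1, so not every pair met the bar set for pairing. The codes also mark libraries of different longest reads (50 and 51 nt).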

Other observations

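The annotation places a further miRNA gene, Mir451b, on the minus strand at the coordinates of Mir451a. Its hairpin shares a stretch of 16 nt with that of Mir451a, shorter than the minimum read length of 18 nt, so no counted read could belong to both. It had 1 read in the 12 libraries, in the untagged IP of replicate A (0.0565 CPM), under the floor of 3 reads.

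In the mean of the tagged IPs, the hairpins next above Mir451a (3.44 CPM) were Mir6958 (3.71 CPM) and Mir3067 (3.52 CPM), and those next below were Mir7654 (3.43 CPM) and Mir219a-1 (3.41 CPM). Beside Mir144 (0.335 CPM) stood Mir7048 and Mir1951 (0.338 and 0.337 CPM) above and Mir6991 and Mir7019 (0.335 and 0.332 CPM) below.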
